A study of Mus musculus with 14 samples.

Results

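The cell cycle and DNA replication genes described here are 40 genes of known function in cell division, taken by symbol from the deposited expression table, which holds 46855 usable gene symbols. All 40 were found in the table and all 40 passed the filter on low values in both comparisons. They were followed in 14 RNA sequencing libraries of whole ileum, the stretch of small intestine nearest the colon, of the inbred mouse strain C57BL/6N. The series concerns weaning, the cytokine interleukin-22 (IL-22) and the formation of the MUC17 glycocalyx on the gut surface.

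The P14 group held 4 libraries from untreated mice at postnatal day 14, before weaning, and the P24 group held 4 from untreated mice at day 24. The PBS group held 3 libraries from mice injected with phosphate-buffered saline and the rmIl22 group held 3 from mice given recombinant mouse IL-22 at 0.1 µg per g body weight in 100 µL. Injections were given into the peritoneum at days 14 and 15, and these mice were killed at day 16. The age field of the labels disagrees with this protocol, since there the PBS mice are listed at day 14 and those given rmIl22 at day 24. All groups were labelled as wild type and no transgene was named. The labels call the libraries biological replicates without naming litters or sexes.

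The cell cycle is driven by cyclin-dependent kinases (CDKs) that switch on when bound by cyclins. D and E cyclins with CDK4 and CDK2 carry a cell from the first gap phase into DNA synthesis, and A and B cyclins with CDK1 carry it into mitosis. Before DNA synthesis the MCM helicase is loaded at replication origins, a step called licensing. In the small intestine, division takes place mainly in the crypts, the pockets at the base of the villi, where stem cells and their fast-dividing progeny renew the epithelium.

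Many of these genes carry short promoter elements that tie their transcription to a phase of the cycle. The E2F site (TTCCCGC or TTGGCGC in the search) is best known from genes of DNA synthesis. The cell cycle genes homology region, or CHR (TTTGAA), often stands beside CCAAT boxes (CCAAT) in mitotic genes. RefSeq promoter windows (GRCm38.p6, 250 bases before to 50 bases after a transcription start) were matched for 31 of the 40 genes, in 33 windows, and were searched on both strands. The reverse of an E2F site and a CCAAT box can share letters. A promoter of a mitotic activator, a mitotic kinase, a helicase subunit and the kinase that fell most are given here with the 150 bases before the start, 5′ to 3′ on the gene's strand. Matched letters on either strand are in capitals.
Cdc20, chr4:118437344-118437493, minus strand: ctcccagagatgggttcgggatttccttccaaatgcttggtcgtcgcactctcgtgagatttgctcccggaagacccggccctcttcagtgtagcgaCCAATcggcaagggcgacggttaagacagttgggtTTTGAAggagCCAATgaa
Cdk1, chr10:69352913-69353062, minus strand: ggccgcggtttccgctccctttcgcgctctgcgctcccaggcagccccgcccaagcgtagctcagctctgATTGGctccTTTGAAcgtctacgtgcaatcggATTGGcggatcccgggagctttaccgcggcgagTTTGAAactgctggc
Mcm6, chr1:128359706-128359855, minus strand: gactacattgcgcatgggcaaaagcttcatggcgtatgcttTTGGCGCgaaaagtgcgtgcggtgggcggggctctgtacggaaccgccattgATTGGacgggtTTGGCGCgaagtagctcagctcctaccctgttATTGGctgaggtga
Cdk4, chr10:127063385-127063534, plus strand: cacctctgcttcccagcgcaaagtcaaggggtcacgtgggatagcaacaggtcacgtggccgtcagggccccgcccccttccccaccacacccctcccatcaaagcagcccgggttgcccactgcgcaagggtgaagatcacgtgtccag

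The Cdc20 stretch held 1 CHR between 2 CCAAT boxes, and that of Cdk1 held 2 of each. The Mcm6 stretch held 2 E2F sites and 2 CCAAT boxes but no CHR. The Cdk4 stretch held none of the searched letters, and neither did its whole window. A CHR was found in 33.3% of the windows of these genes against 17.9% of all 32851 windows. CCAAT boxes were found in 72.7% against 37.4%, and E2F sites in 39.4% against 6.81%. Of the 7 matched licensing genes, 6 had an E2F site and 1, Mcm2, had a CHR. Of the 6 matched mitotic regulators, 4 had a CHR (Aurka, Bub1b, Cdc20 and Plk1) and 0 had an E2F site. A match is a run of letters in a window and says nothing of binding.

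Expression is given as TPM, a level that divides reads by gene length and scales each library to the same total. The libraries held between 35.6 and 46.5 M gene reads, recovered from the TPM. Reg3g and Saa1, genes known to respond to IL-22, checked the labels. In the PBS libraries Reg3g was at 417, 260 and 52.2 TPM, and in the rmIl22 libraries at 3983, 8476 and 3506 TPM. Saa1 was at 7.28 to 27.8 TPM with PBS and at 1634 to 1882 TPM with rmIl22. The library P14 4 had the highest TPM of its group for 38 of the 40 cell cycle genes and for 59.5% of all expressed genes. The library PBS 1 had the lowest of its group for 39 of the 40, against 40% of all genes. Xist, expressed from the inactive X chromosome, was above 28 TPM in P14 libraries 4 and 5, P24 libraries 2, 6 and 8 and rmIl22 libraries 2 and 3, and at or below 0.16 TPM in the others, so 0 of 3 PBS libraries and 2 of 3 rmIl22 libraries expressed it.

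From P14 to P24 the genes of the entry into mitosis rose in the deposited TPM. Some genes of origin licensing and of the first gap phase fell, in shares near or below that of all genes. The mitotic survivin gene Birc5 gained 0.83 and the mitotic kinase gene Aurka 0.78 on the log2(TPM + 1) scale, and the kinase gene Cdk4 lost 1.05. By limma with Benjamini-Hochberg adjustment over all genes tested, 16 of the 40 rose and 7 fell, at an adjusted p under 0.05. Of all 14651 genes tested, 14.6% were called higher and 43.7% lower. The median log2 fold change was 0.23 over the 40 genes and -0.25 over all genes. TPM of the 2 groups did not overlap for 15 genes that were higher at P24 and 7 that were lower, against 13.0% and 39.4% of all genes. At an unadjusted p under 0.05, 18 were higher and 7 lower, against 16.0% and 47.1%.

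These counts turned on how libraries are scaled to each other. With the median gene set equal in every library, which moves the median log2 fold change of all genes from -0.25 to 0.05, 29 of the 40 rose and 4 fell, against 29.8% and 25.6% of all genes. With 8 epithelial marker genes set equal, which moves the median of all genes to -0.77, 0 rose and 23 fell, against 5.56% and 78.2% of all genes, so that falls were fewer among the 40 than among all genes. Those 8 genes themselves differed with age in the deposited TPM: 5 rose, led by Krt19 at 1.69, and Krt18 fell by 1.06. Quantile normalisation gave 27 and 5, against 27.1% and 32.0% of all genes. A fit to the recovered reads with limma's voom, which also set the median gene equal between libraries, gave 31 and 4, against 33.1% and 23.5%. In the authors' deposited table of this comparison, 26 of the 40 were higher and 4 lower at an adjusted p under 0.05, with 4748 of its 23529 entries higher and 4726 lower. In whole tissue, a change in the number of dividing cells and a change in RNA per dividing cell cannot be told apart.

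**Figure D1:**
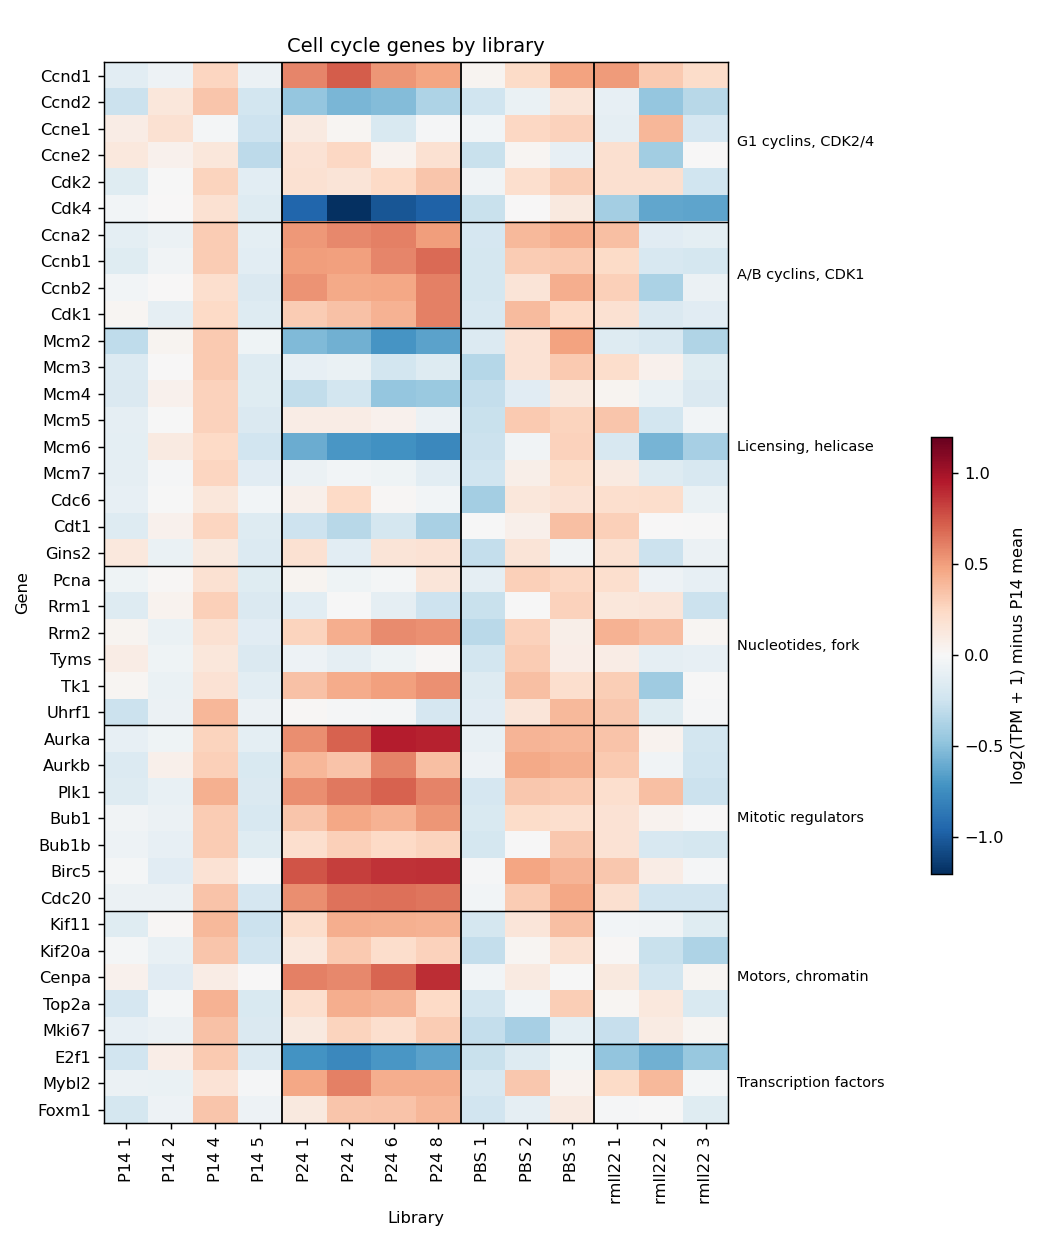
Heat map of the 40 cell cycle genes (rows, grouped by role) in the 14 libraries (columns, grouped by age or injection), coloured by log2(TPM + 1) minus the P14 mean of that gene, in deposited TPM. Birc5, Aurka and Cenpa are red in all 4 P24 libraries and Cdk4, Mcm2, Mcm6 and E2f1 are blue in all 4; the red of P24 depends on the scaling, since 0 genes rose with epithelial genes set equal.

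Of the 6 genes of the D and E cyclins with CDK2 and CDK4, 1 rose, 2 fell and 3 did not pass in the deposited TPM, and with epithelial genes set equal 0 rose and 5 fell. Of all genes 14.6% were called higher and 43.7% lower in the deposited TPM, and 5.56% and 78.2% with epithelial genes set equal. The shares of these 6 genes were near or below those. Ccnd1 encodes cyclin D1, an activator of CDK4. It was at 29.2, 30.6, 38.5 and 30.4 TPM in P14 libraries 1, 2, 4 and 5 and at 48.6, 53.6, 46.8 and 44.7 TPM in P24 libraries 1, 2, 6 and 8. The lowest P24 library was above the highest P14 library. The mean rose from 32.2 ± 4.25 to 48.4 ± 3.81 TPM (SD, n = 4 each), a log2 fold change of 0.58 ± 0.11 (SE, limma adjusted p = 0.000728), though with epithelial genes set equal it was -0.03. Cdk4 encodes the kinase itself and was the member with the largest fall. It was at 97.7, 100, 113 and 89.8 TPM at P14 and at 51.1, 42.2, 48.6 and 50.4 TPM at P24. The groups were far apart, with the highest P24 library below every P14 library. The mean fell from 100 ± 9.81 to 48.0 ± 4.07 TPM (SD, n = 4 each), a log2 fold change of -1.05 ± 0.10 (SE, limma adjusted p = 5.05e-06). Over all 17 alternatives the fold change of Cdk4 stayed between -1.66 and -0.67, and it was called lower in each.

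Cyclin D2, encoded by Ccnd2, was at 34.8, 46.0, 53.0 and 35.8 TPM at P14 and at 28.2 to 32.1 TPM at P24. It fell by 0.48 (adjusted p = 0.00904), a call lost with the median gene set equal (-0.15, adjusted p = 0.211) and with voom. Ccnd1 thus stood at 0.67 to 0.85 times Ccnd2 in the P14 libraries and at 1.39 to 1.90 times in the P24 libraries, a ratio within a library that no scaling between libraries changes. The ratio of Cdk4 to Cdk2 was 7.47 to 8.78 at P14 and 3.03 to 3.58 at P24. These ratios were chosen after their values were seen and carry no test. The E cyclins and Cdk2 did not pass: the log2 fold change was -0.02 for Ccne1, 0.16 for Ccne2 and 0.23 for Cdk2 (adjusted p = 0.0982). Cdk2 passed without the library P14 4 (0.32, adjusted p = 0.0149). Ccne2 and Cdk2 were called higher with the median gene set equal (0.47 and 0.54), with quantile normalisation and with voom. Both were called lower with epithelial genes set equal (-0.40 and -0.35), as was Ccne1 (-0.50).

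All 4 genes of the A and B cyclins with CDK1 rose in the deposited TPM, with a median of 0.53, and with epithelial genes set equal all 4 were slightly negative and 0 were called. Over all genes 14.6% were called higher in the deposited TPM, and with epithelial genes set equal 5.56% were higher and 78.2% lower. Ccnb1, cyclin B1, activates CDK1 at the entry into mitosis. It was at 7.80, 8.45, 11.0 and 7.91 TPM at P14 and at 12.7, 12.7, 13.6 and 14.6 TPM at P24. Every P24 library was above every P14 library. Its log2 fold change was 0.57 ± 0.12 (SE, limma adjusted p = 0.00164). Cdk1, the mitotic kinase, had the smallest rise of the group. It was at 15.2, 13.8, 17.7 and 13.2 TPM at P14 and at 18.6, 19.2, 20.2 and 23.1 TPM at P24, a log2 fold change of 0.42 ± 0.11 (adjusted p = 0.00769). The groups came close but did not overlap. Ccna2, cyclin A2, which acts in DNA synthesis and before mitosis, rose by 0.55, and Ccnb2, cyclin B2, rose by 0.51.

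None of the 9 licensing and helicase genes rose, 4 of them fell and 5 missed the threshold, at a median of -0.14 in the deposited TPM, a share of falls near the 43.7% of all genes and a median above the -0.25 of all genes; with the median gene set equal 4 rose and 2 fell, and with epithelial genes set equal all 9 fell. The shares of all genes higher and lower were 29.8% and 25.6% with the median gene set equal. They were 5.56% and 78.2% with epithelial genes set equal. Mcm6, a subunit of the MCM helicase ring, had the largest fall. It was at 39.8, 46.7, 51.1 and 36.7 TPM at P14 and at 28.3, 26.3, 25.7 and 24.8 TPM at P24. The P24 libraries lay close together and below all 4 P14 libraries. The mean fell from 43.6 ± 6.54 to 26.3 ± 1.46 TPM (SD, n = 4 each), a log2 fold change of -0.70 ± 0.11 (SE, limma adjusted p = 0.000267). Mcm2, another subunit of the ring, was at 9.25, 11.9, 14.7 and 11.2 TPM at P14 and at 7.75, 7.44, 6.75 and 7.08 TPM at P24. It fell by 0.62 (adjusted p = 0.00169), with no overlap between the groups. Both falls were called in all 17 alternatives, at -1.30 to -0.33 for Mcm6 and -1.17 to -0.29 for Mcm2.

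The other subunits of the ring did not follow these. Mcm4 fell by 0.36 (adjusted p = 0.0214) and the loading factor Cdt1 by 0.30 (adjusted p = 0.0406), but both values were near 0 with the median gene set equal, at -0.04 and 0.02. The Mcm4 call was lost without P14 library 2 or 4 or P24 library 6 or 8, with an adjusted p of 0.0517 to 0.0651. The Cdt1 call was lost without P14 library 2 or 4 or any single P24 library, with an adjusted p of 0.0581 to 0.0942. Mcm3 (-0.14), Mcm5 (0.04) and Mcm7 (-0.07) did not pass. Neither did Cdc6, which helps load the ring (0.07), nor Gins2, part of the active helicase. Gins2 had the highest fold change of the group at 0.10 ± 0.12 (adjusted p = 0.521), with 4.06, 3.37, 4.02 and 3.12 TPM at P14 and 4.25, 3.24, 4.14 and 4.21 TPM at P24, which overlapped. Mcm6 was at 2.33 to 2.62 times Mcm5 in the P14 libraries and at 1.38 to 1.48 times in the P24 libraries, so RNA of 2 subunits of the same ring changed unequally within libraries.

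Among 6 genes for nucleotide supply, the replication fork and DNA methylation upkeep, 2 rose, 0 fell and 4 did not pass in the deposited TPM. Of all genes 14.6% were called higher and 43.7% lower. With epithelial genes set equal 0 of the 6 rose and 4 fell, against 5.56% and 78.2% of all genes. The share of falls was thus below that of all genes on both scales. Tk1, thymidine kinase of the salvage pathway, was at 5.95, 5.46, 6.71 and 5.23 TPM at P14 and at 7.71, 8.30, 8.55 and 8.98 TPM at P24. The groups did not overlap and the log2 fold change was 0.46 ± 0.10 (SE, limma adjusted p = 0.00295). Rrm2, the regulated subunit of ribonucleotide reductase, rose by 0.45 (adjusted p = 0.00399). Its partner Rrm1 had the lowest fold change of the group. Rrm1 was at 20.7, 23.9, 28.4 and 20.4 TPM at P14 and at 21.2, 23.0, 21.4 and 19.4 TPM at P24, which overlapped (-0.12 ± 0.12, adjusted p = 0.393). Pcna, the sliding clamp and a common marker of dividing cells, was at 65.0, 68.2, 76.7 and 60.8 TPM at P14 and at 68.8, 65.1, 66.4 and 74.9 TPM at P24. The 2 sets of values covered the same range (0.03 ± 0.10, adjusted p = 0.825). With the median gene set equal Pcna was 0.36 higher (adjusted p = 0.00237), and with epithelial genes set equal its fold change was -0.59 (adjusted p = 0.00035). Tyms, thymidylate synthase, and Uhrf1, which guides the copying of DNA methylation, were at -0.05 and -0.06 and did not pass.

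Of the 7 mitotic kinases, checkpoint genes and activators, 6 rose, 0 fell and 1 did not pass in the deposited TPM, with a median of 0.62; with the median gene set equal all 7 rose, and with epithelial genes set equal 0 rose and Bub1b fell. Over all genes 14.6% were called higher in the deposited TPM and 29.8% with the median gene set equal. With epithelial genes set equal 5.56% of all genes were higher and 78.2% lower. Birc5, survivin, part of the complex that steers Aurora B to chromosomes, had the largest rise of all 40 genes. It was at 7.76, 7.10, 9.04 and 7.83 TPM at P14 and at 14.0, 14.8, 15.2 and 15.4 TPM at P24. Every P24 library was far above every P14 library. The mean rose from 7.93 ± 0.81 to 14.9 ± 0.61 TPM (SD, n = 4 each), a log2 fold change of 0.83 ± 0.10 (SE, limma adjusted p = 2.47e-05), which was 0.26 and not called with epithelial genes set equal (adjusted p = 0.0709). Aurka, the spindle pole kinase, was at 7.62 to 10.3 TPM at P14 and at 12.7 to 16.9 TPM at P24 and rose by 0.78. Cdc20, which activates the anaphase-promoting complex, rose by 0.63, and Plk1, a kinase of mitotic entry, by 0.62. The checkpoint kinase Bub1 and the kinase Aurkb rose by 0.44 and 0.42. Bub1b, a checkpoint gene, was at 10.5, 10.2, 13.8 and 9.87 TPM at P14 and at 12.8, 13.6, 13.1 and 13.4 TPM at P24 (0.25 ± 0.11, adjusted p = 0.0755). The library P14 4 lay above all P24 libraries for Bub1b, and without it the gene passed (0.35, adjusted p = 0.00609).

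Of the 5 genes for mitotic motors, centromere, chromatin and the Ki-67 antigen, 2 rose and 3 did not pass in the deposited TPM. All 5 rose with the median gene set equal, and with epithelial genes set equal 0 rose and 3 fell. The shares of all genes called higher and lower were 14.6% and 43.7% in the deposited TPM. They were 29.8% and 25.6% with the median gene set equal, and 5.56% and 78.2% with epithelial genes set equal. Cenpa, the histone variant that marks centromeres, was at 4.42, 3.76, 4.58 and 4.25 TPM at P14 and at 6.96, 6.81, 7.52 and 8.68 TPM at P24. There was no overlap, and the log2 fold change was 0.69 ± 0.11 (SE, limma adjusted p = 0.000259). Kif11, the motor that separates spindle poles, rose by 0.37 (adjusted p = 0.0343), with overlapping groups. The Kif11 call was lost without P14 library 1, 2 or 5 or P24 library 2, 6 or 8, with an adjusted p of 0.0640 to 0.0875. Mki67, the Ki-67 gene and the most used marker of dividing cells, had the lowest fold change of the group. It was at 20.7, 21.2, 28.7 and 19.6 TPM at P14 and at 24.2, 27.0, 25.9 and 27.8 TPM at P24. Library P14 4 was above all P24 libraries and the other 3 were below them all (0.22 ± 0.12, adjusted p = 0.129). Top2a, the topoisomerase that untangles chromosomes, was at 21.5, 24.4, 33.4 and 21.7 TPM at P14 and at 28.7, 33.9, 33.3 and 29.5 TPM at P24 (0.32 ± 0.14, adjusted p = 0.0621). Again P14 4 stood with the P24 libraries. Without it Mki67 (0.34, adjusted p = 0.00906), Top2a (0.46, adjusted p = 0.0037) and the cytokinesis motor Kif20a (0.34, adjusted p = 0.0136) passed, as did Foxm1.

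The 3 transcription factors parted. E2f1, which drives genes of DNA synthesis, was at 3.24, 4.25, 5.16 and 3.43 TPM at P14 and at 2.01, 1.90, 2.05 and 2.17 TPM at P24. The P24 libraries were tightly grouped and all below P14. The mean fell from 4.02 ± 0.88 to 2.03 ± 0.11 TPM (SD, n = 4 each), a log2 fold change of -0.71 ± 0.14 (SE, limma adjusted p = 0.000912), and over the 17 alternatives it stayed called, between -1.16 and -0.46. Mybl2, or B-Myb, part of the activator complex of mitotic genes, was at 1.76, 1.73, 2.25 and 1.86 TPM at P14 and at 2.99, 3.39, 2.91 and 2.91 TPM at P24. All 4 P24 libraries were higher, and the log2 fold change was 0.48 ± 0.11 (adjusted p = 0.00366), or 0.04 and not called with epithelial genes set equal. Foxm1, another activator of mitotic genes, was at 0.30 and did not pass (adjusted p = 0.0823).

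**Figure D2:**
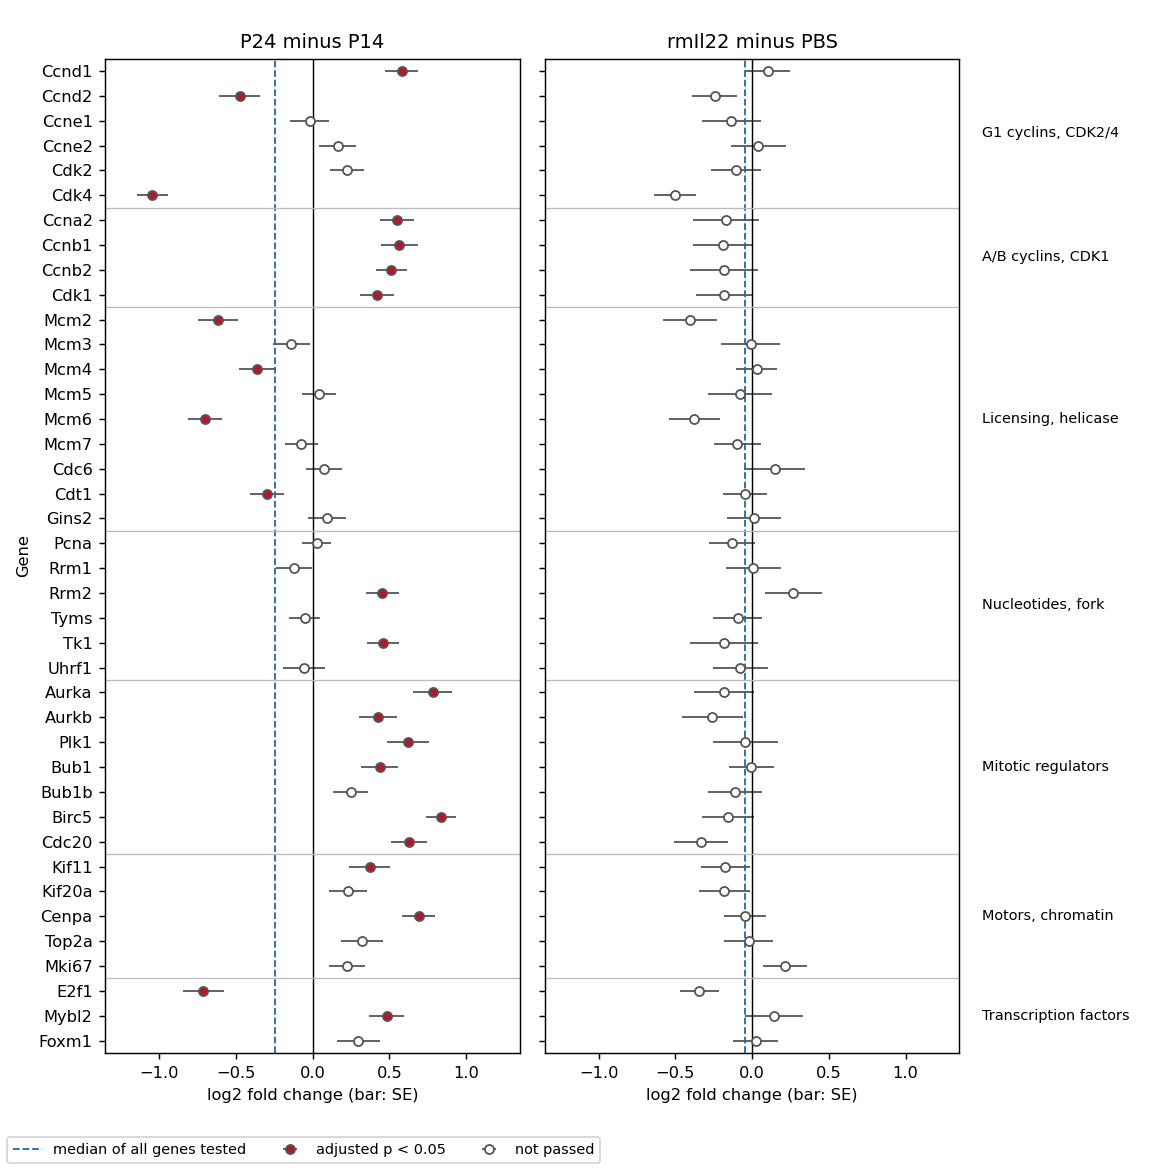
Log2 fold change of each of the 40 genes on log2(TPM + 1) in deposited TPM, P24 minus P14 on the left and rmIl22 minus PBS on the right; points are estimates, bars are SE, filled points have a limma adjusted p under 0.05 and the dashed line is the median of all genes tested. On the left 16 genes rose and 7 fell, and with epithelial genes set equal 0 rose and 23 fell; on the right 0 were called.

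The calls differed in how well they held. The falls of Cdk4, Mcm2, Mcm6 and E2f1 were called in each of the 17 alternatives. Of the 16 rises, 15 were lost with epithelial genes set equal and in no other alternative, and Kif11 was lost in 9. A contrast taken inside each library needs no scaling between libraries. The mean log2(TPM + 1) of the 7 mitotic regulators minus that of the 9 licensing genes was -0.42, -0.53, -0.39 and -0.46 in P14 libraries 1, 2, 4 and 5. It was 0.20, 0.30, 0.42 and 0.43 in P24 libraries 1, 2, 6 and 8. The sign thus differed between all P14 and all P24 libraries, P14 4 included. In the PBS libraries it was -0.31, -0.24 and -0.33, and in the rmIl22 libraries -0.32, -0.31 and -0.45, all on the P14 side of 0. This contrast was chosen after the values were seen and is a description without a test.

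**Figure D3:**
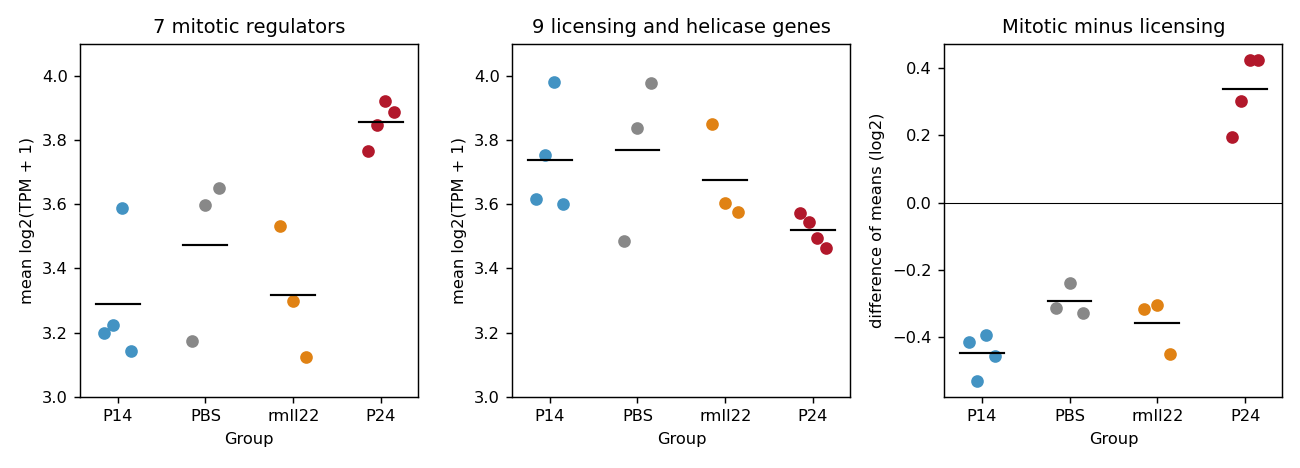
Mean log2(TPM + 1) of the 7 mitotic regulators (left), of the 9 licensing genes (middle) and the difference of the 2 means (right) in each library, by group; points are libraries and horizontal lines are group means, and the left and middle axes start at 3. The difference is 0.20 to 0.43 in the P24 libraries and below 0 in all P14, PBS and rmIl22 libraries; it is taken within libraries, while the levels on the left and in the middle are deposited TPM, in which the higher mitotic level at P24 is lost with epithelial genes set equal.

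Promoter letters and fold changes were set side by side for the 31 matched genes. Of the 11 with a CHR, 7 rose, 1 fell (Mcm2) and the median log2 fold change was 0.42 in the deposited TPM. Of the 10 with an E2F site and no CHR, 1 rose (Ccnb1), 2 fell (Mcm6 and Cdt1) and the median was -0.06. With the median gene set equal the medians were 0.74 and 0.25. Over all genes 14.6% were called higher and 43.7% lower, with a median of -0.25, in the deposited TPM. Of the 3 with a CCAAT box alone, Bub1 and Rrm2 rose and Pcna did not pass, with a median of 0.44, or 0.73 with the median gene set equal, close to the genes with a CHR. Of the 7 with no match to any of the 3 elements, Birc5, Tk1 and Mybl2 rose and Cdk4 and E2f1 fell. Birc5 and Cdk4, the largest rise and the largest fall of all 40 genes, thus had none of these letters in their windows.

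Injected IL-22 did not move these genes past the test. By limma with adjustment over all genes, 0 of the 40 rose and 0 fell with rmIl22, where 0.443% of all 14456 genes tested were called higher and 2.25% lower. At an unadjusted p under 0.05, 0 were higher and 2 lower, against 4.07% and 11.4% of all genes. The median log2 fold change was -0.10 over the 40 genes and -0.05 over all genes, and 30 of the 40 were negative. The sign of the median changed only with Xist as a covariate, where it was 0.09 and 23 of the 40 values changed sign. Among the injected mice only rmIl22 libraries 2 and 3 expressed Xist. That fit therefore sets mainly rmIl22 library 1 against PBS. In every other alternative the median was negative. With the median gene set equal, 0 were called, against 0.383% higher and 1.74% lower of all genes, and 3 were lower at an unadjusted p under 0.05. The largest differences concerned genes that also fell with age.

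Cdk4 was at 82.6, 100 and 109 TPM in PBS libraries 1, 2 and 3 and at 75.0, 64.6 and 64.2 TPM in rmIl22 libraries 1, 2 and 3. All 3 rmIl22 libraries were below all PBS libraries. The mean was 97.2 ± 13.3 with PBS and 67.9 ± 6.10 TPM with rmIl22 (SD, n = 3 each), a log2 fold change of -0.50 ± 0.14 (SE, limma adjusted p = 0.117), with an adjusted p between 0.0235 and 0.609 over its alternatives. It was under 0.05 only in the fit of all 14 libraries. In the authors' deposited table for rmIl22, which lists 1102 genes with adjusted p up to 0.00999, Cdk4 is the only one of the 40 genes, with a log2 fold change of -0.48 and an adjusted p of 0.000368. E2f1 was at 3.14, 3.46 and 3.79 TPM with PBS and at 2.58, 2.34 and 2.63 TPM with rmIl22. Here too the groups did not overlap (-0.34 ± 0.13, limma adjusted p = 0.263). Groups that did not overlap were seen for 0 of the 40 in the higher direction and for 2 in the lower, against 5.62% and 15.4% of all genes.

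The other genes overlapped between the injected groups. Ccnd1 was at 32.7, 37.7 and 45.2 TPM with PBS and at 45.9, 40.1 and 37.6 TPM with rmIl22, which overlapped (0.10 ± 0.15, limma adjusted p = 0.84). Ccnb1, with the lowest fold change of the A and B cyclin group, was at 7.39, 11.0 and 11.0 TPM with PBS and at 10.4, 7.53 and 7.41 TPM with rmIl22 (-0.19 ± 0.19, adjusted p = 0.753). Ccna2, with the highest, was at 18.4, 28.3 and 29.4 TPM and at 27.7, 19.4 and 19.7 TPM (-0.17 ± 0.21, adjusted p = 0.811). In both genes 1 PBS library was as low as the lower rmIl22 libraries and rmIl22 1 was as high as the higher PBS libraries.

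Among the licensing genes, Mcm2 was at 10.3, 13.2 and 16.7 TPM with PBS and at 10.4, 10.04 and 8.81 TPM with rmIl22 (-0.40 ± 0.18, limma adjusted p = 0.339). Mcm6 was at 36.0, 42.0 and 52.6 TPM and at 37.7, 29.0 and 32.5 TPM (-0.38 ± 0.17, adjusted p = 0.343). Each overlapped in 1 library of a group. Cdc6, with the highest fold change of the licensing genes, was at 1.40, 2.49 and 2.60 TPM and at 2.68, 2.70 and 2.02 TPM (0.15 ± 0.20, adjusted p = 0.827). Rrm2 was at 7.45, 11.8 and 10.1 TPM and at 13.2, 12.7 and 9.80 TPM (0.27 ± 0.19, adjusted p = 0.602), the highest fold change of the 40. Tk1 was at 5.11, 7.77 and 6.84 TPM and at 7.35, 4.06 and 5.81 TPM (-0.18 ± 0.22, adjusted p = 0.799). Pcna was at 62.6, 82.6 and 80.3 TPM and at 77.7, 64.4 and 62.8 TPM (-0.13 ± 0.15, adjusted p = 0.785). All of these overlapped.

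Of the mitotic genes, Cdc20 was at 19.5, 24.9 and 28.1 TPM with PBS and at 23.1, 17.0 and 17.0 TPM with rmIl22 (-0.33 ± 0.18, limma adjusted p = 0.457). Bub1 was at 4.36, 6.08 and 5.99 TPM and at 5.86, 5.27 and 5.11 TPM (-0.01 ± 0.15, adjusted p = 0.994). Neither separated the groups. Kif20a was at 7.21, 9.17 and 10.3 TPM and at 9.10, 7.31 and 6.71 TPM (-0.18 ± 0.17, adjusted p = 0.716). Mki67 was at 18.1, 16.6 and 20.5 TPM and at 18.2, 23.9 and 22.7 TPM (0.21 ± 0.14, adjusted p = 0.574), the only positive value among the motors and chromatin genes. Top2a was at 21.1, 24.3 and 30.6 TPM and at 25.3, 27.2 and 21.8 TPM (-0.02 ± 0.16, adjusted p = 0.976). Mybl2, the highest of the transcription factors, was at 1.53, 2.62 and 1.97 TPM and at 2.39, 2.79 and 1.85 TPM (0.14 ± 0.19, adjusted p = 0.823). These too overlapped, and none of Mki67, Top2a and Pcna passed the test.

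**Figure D4:**
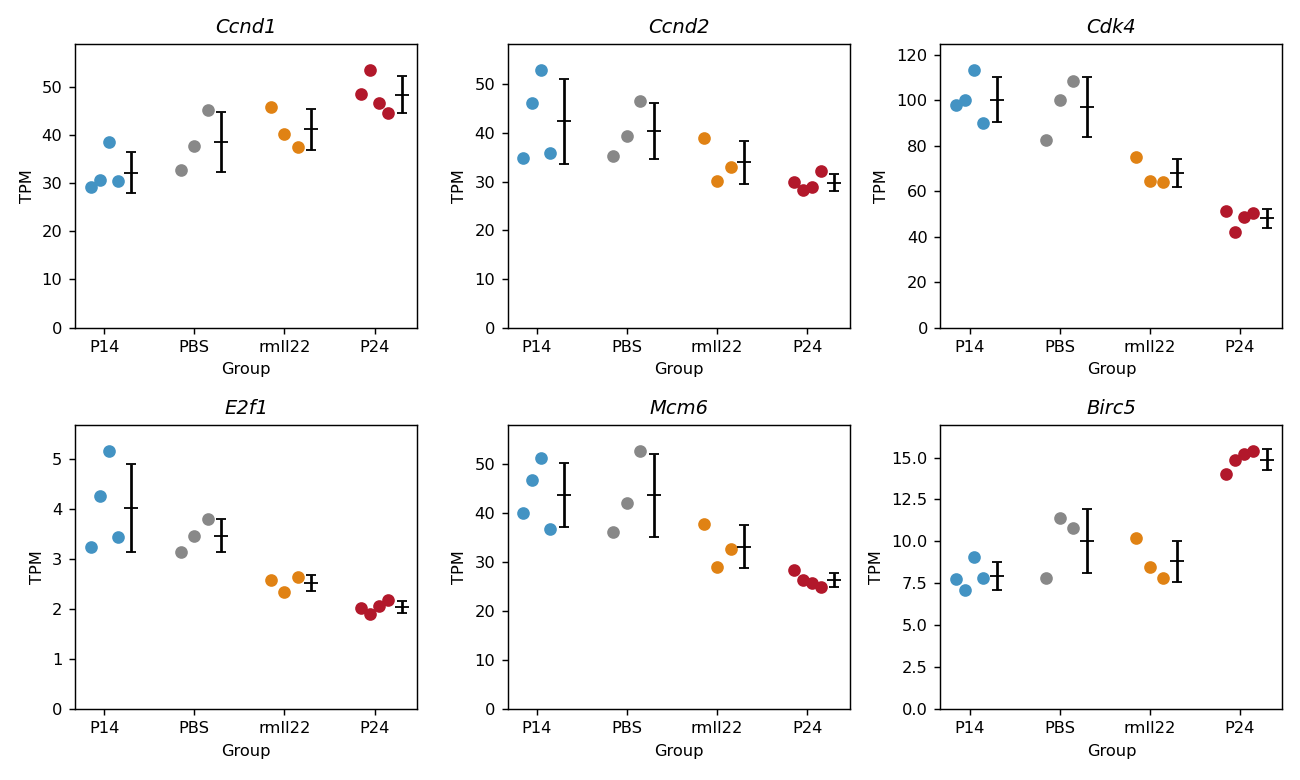
Deposited TPM of Ccnd1, Ccnd2, Cdk4, E2f1, Mcm6 and Birc5 in each library by group; points are libraries, and the bar beside them is the group mean with its SD (n = 4 for P14 and P24, n = 3 for PBS and rmIl22). P24 lies below P14 for Ccnd2, Cdk4, E2f1 and Mcm6 and above it for Ccnd1 and Birc5, but the Ccnd2 call is lost with the median gene set equal and the rises of Ccnd1 and Birc5 with epithelial genes set equal; rmIl22 and PBS are separate for Cdk4 and E2f1 and overlap for the other 4.

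Ratios within libraries placed the injected mice between the 2 ages for some pairs. Ccnd1 stood at 0.93 to 0.97 times Ccnd2 with PBS and at 1.14 to 1.34 times with rmIl22. The ratio of Cdk4 to Cdk2 was 6.89 to 7.03 with PBS and 4.52 to 6.20 with rmIl22. In each pair the rmIl22 libraries lay apart from the PBS libraries and on the side of P24. The ratio of Mcm6 to Mcm5 overlapped, at 1.87 to 2.46 with PBS and 1.66 to 1.91 with rmIl22. These pairs were likewise chosen after their values were seen.

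The 2 comparisons share no library, so the difference between the age effect and the IL-22 effect was tested in 1 limma fit of all 14 libraries. It was called for 10 of the 40 genes, near the 23.8% of 15702 genes tested in either direction. It was positive for 9, against 6.51% of all genes, and negative for 1, against 17.3%. The 9 were Ccna2, Ccnb1, Ccnb2, Cdk1, Aurka, Aurkb, Birc5, Cdc20 and Cenpa, with differences from 0.60 for Cdk1 to 0.99 for Birc5. The largest, that of Birc5, was 0.99 ± 0.18 (SE, adjusted p = 0.00158), and that of Cdc20 was 0.96 ± 0.21 (adjusted p = 0.00567). The 1 negative difference was that of Cdk4, at -0.54 ± 0.16 (adjusted p = 0.0283), so its fall with age was larger than its change with rmIl22. With the median gene set equal the difference was positive for 20 genes, against 15.4% of all genes, and negative for 0, with 25.8% of all genes called in either direction, and that of Cdk4 was not called (adjusted p = 0.267). The difference with epithelial genes set equal, where 0 of the 40 rose with age, is not given here. On that scale the log2 fold changes with age and with rmIl22 were 0.26 and -0.23 for Birc5. They were -0.17 and -0.26 for Cdk1. The count of called differences was 6 without P14 library 1, 2 or 5 or P24 library 1, 6 or 8. It was 5 without P24 library 2, PBS library 3 or rmIl22 library 3, and 4 without PBS library 2.

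Further genes of the same pathways were taken from lists by role. Their counts with age are read against the 14.6% of all genes called higher and 43.7% called lower in the deposited TPM. Among the CDK inhibitors, which brake the cycle, 2 of 6 tested rose with age and 2 fell. Cdkn1a, or p21, went from 24.4 ± 5.31 to 70.8 ± 7.18 TPM (1.52 ± 0.14, limma adjusted p = 4.39e-06), and the imprinted Cdkn1c, or p57, went from 210 ± 28.1 to 16.6 ± 3.12 TPM (-3.59 ± 0.14, adjusted p = 1.9e-09; SD, n = 4 each). Both changes were larger than that of any of the 40 genes. With rmIl22, Cdkn2b, or p15, was the only inhibitor called. It was at 103, 92.2 and 85.8 TPM with PBS and at 185, 136 and 171 TPM with rmIl22 and rose by 0.79 ± 0.15 (adjusted p = 0.0406). With epithelial genes set equal 0 of the 6 inhibitors were called with rmIl22. Of 14 RB and E2F family genes, 2 rose with age (E2f2 by 1.00 the most) and 4 fell (E2f5 by 0.82 the most) in the deposited TPM. Those shares were near or below those of all genes. With epithelial genes set equal 2 rose and 12 fell, against 5.56% and 78.2% of all genes. With the median gene set equal 8 rose and 3 fell, against 29.8% and 25.6%. The repressor E2f8 was at 8.69, 7.70 and 8.19 TPM with PBS and at 2.58, 4.07 and 2.97 TPM with rmIl22. It fell by 1.14 ± 0.16 (adjusted p = 0.0181), with the groups far apart, and it fell by 0.79 with age.

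The counts of the lists for other steps are read against the 14.6% of all genes called higher and 43.7% called lower with age in the deposited TPM. With the median gene set equal those shares were 29.8% and 25.6%, and with epithelial genes set equal 5.56% and 78.2%. Of 21 mitotic kinesin, spindle and cytokinesis genes tested with age, 14 rose and 0 fell in the deposited TPM. The spindle gene Hmmr rose the most, by 0.80. In this list 21 of 22 tested rose and 0 fell with the median gene set equal, whereas 0 rose and 5 fell with epithelial genes set equal. Of 21 kinetochore and checkpoint genes, 11 rose (Cenpw by 0.57) and 1, the securin gene Pttg1, fell by 0.49. The counts were 19 and 0 with the median gene set equal and 0 and 5 with epithelial genes set equal. Of 24 genes of the replicative polymerases, clamp loader and ligase, 1 rose (Rpa3 by 0.46) and 8 fell (Pold2 by 0.70). In the deposited TPM that was a smaller share of falls than over all genes. With the median gene set equal 7 rose and 2 fell, but with epithelial genes set equal 0 rose and 23 fell. The latter was a larger share of falls than the 78.2% of all genes. Of 16 origin recognition and initiation genes 6 rose (Mcm10 by 0.57) and 4 fell (Orc3 by 0.63). These counts were 9 and 2 with the median gene set equal, and 0 and 8 with epithelial genes set equal. Of 13 condensin and cohesin genes 1 rose (Ncapg by 0.50) and 3 fell (Smc3 by 0.52), or 7 and 0 with the median gene set equal. The counts became 0 and 12 with epithelial genes set equal, again a larger share of falls than over all genes. Of 17 replication stress and repair genes 0 rose and 4 fell (Atm by 0.57), a smaller share than over all genes. The counts for repair were 8 and 1 with the median gene set equal and 0 and 12 with epithelial genes set equal. Of 12 other CDK, cyclin and phosphatase genes 5 rose (Pkmyt1 by 0.62) and 4 fell (Ccnd3, cyclin D3, by 1.46). These counts were 6 and 4 with the median gene set equal, and 0 and 7 with epithelial genes set equal. With rmIl22, 0 genes of these 7 lists were called by limma, where 0.443% of all genes were higher and 2.25% lower. Shares so low leave little room for calls in lists of this size.

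Markers of the cell types that whole ileum can hold also differed with age. Counts of called markers are read against the 14.6% of all genes called higher and 43.7% called lower in the deposited TPM. In deposited TPM, 5 of 8 epithelial markers rose and 1 fell, and their summed level was 5635 to 7213 TPM at P14 and 9603 to 12223 TPM at P24. All 8 Paneth cell genes rose. Among 11 genes of crypt stem cells, Prom1 was the 1 that rose and 5, led by Tnfrsf19, fell, shares near or below those of all genes. With the median gene set equal 5 rose and 2 fell, against 29.8% and 25.6% of all genes. With epithelial genes set equal 1 rose and 10 fell, against 5.56% and 78.2%. The summed level of the 11 overlapped, at 482 to 956 TPM at P14 and 705 to 788 TPM at P24. Of 7 fibroblast genes 6 fell, with sums of 667 to 1300 TPM and 404 to 540 TPM. Of 5 erythroid genes tested 4 rose, with sums of 132 to 219 TPM and 218 to 801 TPM. Of 5 plasma cell genes tested 4 rose, led by Igha, with sums of 182 to 227 TPM and 286 to 360 TPM that did not overlap. Of 9 enterocyte genes 4 rose and 2 fell, of 6 smooth muscle genes 2 rose, and of 5 T cell genes tested 1 rose. The part of these cells in the results above was not tested.

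Dividing B cells of lymphoid follicles could add to cell cycle RNA. The summed level of 10 B cell genes was 2.63 to 33.1 TPM at P14 and 3.32 to 139 TPM at P24, high in P24 libraries 1 and 8 and low in 2 and 6, and 0 of 8 tested genes were called. Of 8 germinal centre genes 5 were tested, 2 rose (Rgs13 the most) and 1 fell, with sums of 22.2 to 28.1 TPM and 34.5 to 39.5 TPM. With the B cell level as a covariate, 17 of the 40 genes rose with age and 6 fell, against 14.7% and 40.6% of all genes. In the injected mice the B cell sum was 12.1 to 58.5 TPM with PBS and 2.63 to 27.3 TPM with rmIl22. With that covariate the IL-22 fit called 0 of all 14456 genes, so it says nothing of the 40. With Xist as a covariate, added after seeing the data, 15 rose and 6 fell with age, against 13.7% and 41.6% of all genes.

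Within groups the 40 genes went up and down together. After subtracting group means, the correlation over the 14 libraries of each gene with the mean of the other genes was above 0.5 for 37 of 40 and reached 0.98 for Mcm7. It was lowest for Ccne1 (0.22), Mki67 (0.33) and Cenpa (0.35), and the median over the 780 pairs was 0.71. The libraries share depth, total RNA composition and tissue sampling, so this describes the libraries and carries no test. The same correlation over other genes is not given here, so it is not shown to be particular to these 40. The 40 genes are therefore not independent readings of the age difference.

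Some genes share their position with others. In the GENCODE M21 annotation of GRCm38, 19 of the 40 genes overlap another gene, 15 of them on the opposite strand, such as Cdk4 (chr10:127063534-127067920, plus strand) with Tspan31 and Cdc20 (chr4:118432901-118437352, minus strand) with Elovl1. No source used here gives the strand setting of the counting, so reads of such partners cannot be told apart. Birc5 (chr11:117849251-117855743, plus strand), E2f1 (chr2:154559407-154569892, minus strand), Mcm2 (chr6:88883474-88898780, minus strand) and Mcm6 (chr1:128331590-128359664, minus strand) overlap no other annotated gene. Ccnb2 and Pcna have pseudogene entries of their name, which can share reads with them.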

How the data were processed

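Total RNA of whole ileum was sequenced after removal of ribosomal RNA, with a kit that keeps strand, per the labels' protocols. The submitters' processing notes name FastQC 0.11.2, STAR 2.4.0f, HTSeq 0.6.1p1, DESeq2 1.14 and the mm10 build. No source used here gives the annotation or the strand setting. The authors deposited TPM per gene symbol for 14 libraries and tables of log2 fold changes and p-values for each comparison. Those tables, written with decimal commas, are printed only as the authors' deposited values. Of 46882 entries, 27 had symbols turned into dates and were left out. Columns were matched to groups by name; P14 and P24 columns are numbered 1, 2, 4, 5 and 1, 2, 6, 8 and were assigned to the group only.

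Whole reads were recovered from the TPM for all 31189 genes with any value, within 0.001 of a whole number, and gave 35.6 to 46.5 M reads per library. On simulated reads, 95.16% of 2872 genes were recovered exactly. Each comparison was fitted to log2(TPM + 1) of its own libraries by two-sided tests of limma (version 3.58.1, R version 4.3.3), whose prior variance followed mean expression, over genes at 1 TPM or more in at least 4 libraries (age) or 3 (IL-22 and the difference of effects). Fold changes on this scale understate those of low genes. The Benjamini-Hochberg adjustment ran over the whole table tested, and calls needed an adjusted p under 0.05. The code was tested on simulated data.

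Alternatives were a pseudocount of 0.1, no filter, median, epithelial and quantile scaling, a fit of all 14 libraries, voom on the recovered reads, a B cell covariate, leaving out each library, a replicate block, and an Xist covariate added after seeing the data. The voom fit used library sizes scaled to the median gene, so it shares that scaling with the median-scaled TPM. Values of every library were printed for the genes with the largest and smallest fold change of each role and for Mki67, Top2a, Pcna, Ccnb1, Ccnd1, Mcm2 and Mcm6. Other genes with such values were chosen after they were seen. For pathway lists the largest rise and fall among the called genes were named; Cdkn2b and E2f8 were the genes called with rmIl22. The genes and lists were chosen with earlier results of these data known. P-values measure the spread between the libraries of each group. The level of 1 marker gene is not reported here.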

Additional observations from a re-analysis of the deposited data

Results flagged for a closer look

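In 10 of 80 sets of 4 libraries (40 genes at 2 ages), 1 library stood apart, with a gap to its nearest neighbour that, as a share of the range of the set, passed Dixon's critical value for 4 values, where chance gives about 1 in 20. In 6 of them the library was P14 4 and the value was high: Ccnd1 at 38.5 TPM, Ccna2 at 26.7 TPM, Aurka at 10.3 TPM, Plk1 at 8.52 TPM, Bub1b at 13.8 TPM and Mki67 at 28.7 TPM. The next highest P14 libraries were at 30.6, 20.3, 8.02, 5.67, 10.46 and 21.2 TPM. P14 4 also had the highest summed fibroblast level of its group, at 1300 TPM, and the highest crypt stem cell level, at 956 TPM; their part in these values was not tested. Among the P24 libraries, Gins2 was low in library 2 at 3.24 TPM, Uhrf1 was low in library 8 at 12.5 TPM, Kif11 was low in library 1 at 16.02 TPM and Mybl2 was high in library 2 at 3.40 TPM. The 80 sets are not independent, since these genes went up and down together within groups. The count of 10 therefore does not measure an excess over 1 in 20.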

How the results depend on the processing

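Counts of the 40 genes depended on scaling between libraries, for which the cause was not tested. With age, 16 rose and 7 fell in the deposited TPM, against 29 and 4 with median scaling, 0 and 23 with epithelial scaling, 27 and 5 with quantile normalisation and 31 and 4 with voom. Leaving out each library gave 15 to 22 rises and 5 to 7 falls. With rmIl22, 1 gene fell in the fit of all 14 libraries and 0 in the other alternatives. Some of those fits called almost nothing over all genes, so their 0 says nothing of the 40. Genes called higher and lower were 0 and 0 with the B cell covariate and 13 and 15 with Xist. They were 1 and 13 without PBS library 1, and 1 and 3 without PBS library 3. The difference of effects was called for 10 genes, 5 with no filter, 20 with median scaling and 4 to 14 with a library left out. Of 1320 values of single genes under alternatives, 139 changed sign, 51 with age and 88 with rmIl22. In 108 of them the gene was called on neither side, and 23 of those with rmIl22 came with Xist as a covariate. The other 31, all with age, are these. With epithelial scaling the log2 fold change was -0.028 for Ccnd1, -0.40 for Ccne2, -0.35 for Cdk2, -0.049 for Ccna2, -0.0027 for Ccnb1, -0.086 for Ccnb2, -0.17 for Cdk1, -0.55 for Mcm5, -0.36 for Cdc6, -0.40 for Gins2, -0.59 for Pcna, -0.12 for Rrm2, -0.083 for Tk1, -0.14 for Aurkb, -0.10 for Bub1, -0.33 for Bub1b, -0.21 for Kif11, -0.33 for Kif20a, -0.28 for Top2a and -0.37 for Mki67. With voom it was 0.24 for Mcm3, 0.0083 for Mcm4, 0.31 for Mcm7, 0.070 for Cdt1, 0.33 for Tyms and 0.33 for Uhrf1. With median scaling it was 0.24 for Mcm7, 0.018 for Cdt1 and 0.25 for Tyms, and with quantile normalisation 0.19 for Mcm7 and 0.22 for Tyms. With the replicate number as a block, 0 of the 40 genes rose and 0 fell with rmIl22; same-numbered libraries correlated at -0.07, 0.33 and -0.05, so the numbers were not taken as pairs. No paired analysis was possible for age because the P14 and P24 columns carry numbers that were not tied to samples. With 3 or 4 libraries per group, a difference within their spread was not detectable.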

Other observations

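Replication-dependent histone genes, which supply chromatin during DNA synthesis, were a further group. Of 69 listed genes, 57 were tested with age. In the deposited TPM 36 rose and 2 fell, against 14.6% and 43.7% of all genes. The median log2 fold change of the 57 was 0.40. With epithelial genes set equal 0 rose and 15 fell, against 5.56% and 78.2% of all genes. With the median gene set equal 49 rose and 1 fell, against 29.8% and 25.6%. Hist1h2bh rose the most, from 206 to 368 TPM, and Hist3h2a fell the most, from 6.26 to 2.93 TPM. With rmIl22, 0 of 57 were called by limma, near the 0.443% higher and 2.25% lower of all genes. Near-identical histone copies share reads, so single members are uncertain.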
